A study of Mus musculus with 2 samples.

Results

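The clustered protocadherins are a family of cell-surface adhesion proteins encoded by neighbouring gene arrays on mouse chromosome 18. Members were taken as the protein-coding genes of GENCODE vM21 (GRCm38) on that chromosome whose symbol begins with Pcdha, Pcdhb, Pcdhga, Pcdhgb or Pcdhgc and a number, together with Pcdhac1 and Pcdhac2. This rule found 57 of 21938 protein-coding genes on the assembled chromosomes. They comprised 12 Pcdha, 22 Pcdhb, 12 Pcdhga, 6 Pcdhgb and 5 C-type genes, the last being Pcdhac1, Pcdhac2, Pcdhgc3, Pcdhgc4 and Pcdhgc5. All were on the plus strand. GENCODE gives the symbol Pcdha11 to 2 of these gene records. The first, ENSMUSG00000007440.10, starts at the place where RefSeq has Pcdha10, and the records were kept apart by identifier. Pcdhgb8 is annotated as a polymorphic pseudogene and fell outside the rule.

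Open chromatin was assayed by ATAC-seq, in which a transposase inserts sequencing adapters into open DNA, in LβT2 cells, an immortalized clonal mouse gonadotrope line derived from the anterior pituitary. Both replicates were at passage 21 and received the same treatment of GnRH pulses at 2 nM, given every 2 h over 6 h and 45 min. That amounted to 4 pulses, with the harvest 45 min after the last of them, and each transposase reaction held 4500 cells. With 1 condition and no untreated or control sample, no test between groups was possible, and each value is shown per replicate or averaged over both (SD, n = 2). The study describes the samples and their libraries as independent, but nothing in the sources says that they came from separate cultures, so their spread may be technical.

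In neurons, each cell is known to choose a few promoters of the Pcdha, Pcdhb and Pcdhg arrays, each driving its own large variable exon, and in the Pcdha and Pcdhg arrays this exon is spliced to constant exons shared by the whole array. The choice involves looping between promoters and distal enhancers through CTCF and cohesin, with CTCF motifs in promoters and variable exons pointing towards the enhancers. The C-type genes are regulated differently and are expressed more uniformly. The variable exons are also known to be held in methylated, silent chromatin in many cells that are not neurons.

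The deposited lists held 58519 peaks for replicate 1 and 64984 for replicate 2. The number of tags at each summit, solved from the authors' fold and p-value, was at least 10 in replicate 1 and at least 11 in replicate 2, with medians of 14 and 16. The expected background was 3.05 tags in replicate 1 and 3.54 tags in replicate 2. The study's methods name the fly genome size for peak calling in these mouse data. The background, and with it every fold, q value and call of no peak, depends on this setting, which was not varied. A promoter without a peak is therefore one whose signal did not reach the threshold of the list. At this depth and setting, a missing peak does not show that the promoter was closed. The label of the cells was checked against pituitary markers. Promoters within 1 kb of the gene start held a peak for 3 of 5 gonadotrope markers in replicate 1 and 4 of 5 in replicate 2, beside 29.9% and 41.3% of all protein-coding genes. Lhb, which encodes the β-subunit of luteinizing hormone, reached a −log10 q of 37.6 and 60.5 in replicates 1 and 2. Cga, for the common α-subunit, had 12 and 36, and Gnrhr, for the GnRH receptor, had 9.36 and 18. Nr5a1 had a peak at its annotated start in replicate 2 only, although at any transcript start it had one in both, and Fshb, for the β-subunit of follicle-stimulating hormone, had none. The markers of other pituitary lineages (Tshb, Gh, Prl, Pomc and Pou1f1) had no promoter peak in either replicate.

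Few clustered protocadherin promoters had a peak. Promoters reached 1 kb to each side of the annotated start of a gene. By this measure 3 of 57 members had a promoter peak in replicate 1, against 29.9% of all protein-coding genes. In replicate 2 there were 5 of 57, against 41.3% of all protein-coding genes. The same 3 members, Pcdhb1, Pcdhgc3 and Pcdhgc4, had a peak in both replicates, against 28.7% of all protein-coding genes. The members' share averaged 7.02% ± 2.48 (SD, n = 2), from 5.26% in replicate 1 and 8.77% in replicate 2, while the mean over all protein-coding genes was 35.6% ± 8.06. The gap between these means was larger than either SD, but these SDs describe the spread between 2 lists and not that over genes. They therefore do not test the difference. In neither replicate was a peak found at the other 52 members.

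**Figure D1:**
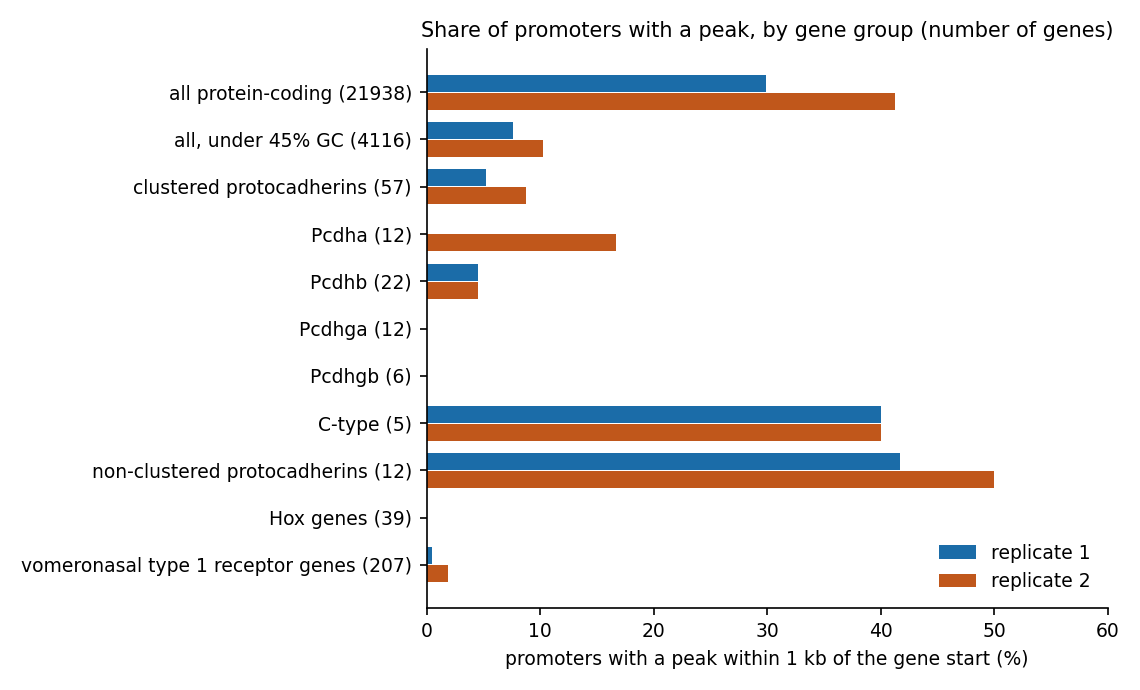
Share of promoters with a peak within 1 kb of the gene start (horizontal axis, %) in replicate 1 (blue) and replicate 2 (orange), for all protein-coding genes, those with a promoter under 45% GC, the clustered protocadherins and their groups, and other families, with the number of genes in parentheses. The clustered protocadherins lie at 5.26% and 8.77%, below the 29.9% and 41.3% of all genes, and the C-type genes at 40% in both replicates.

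Promoter peaks were counted for each group of the family. Of the 5 C-type genes, 2 had a promoter peak, the same 2 in both replicates (40%), beside 29.9% and 41.3% of all protein-coding genes. Of the 22 Pcdhb genes, Pcdhb1 alone had one, in both replicates. Of the 12 Pcdha genes, none had a promoter peak in replicate 1 and 2 had one in replicate 2. None of the 12 Pcdhga and 6 Pcdhgb genes had a promoter peak in either replicate. These counts are small, and no difference between the groups was tested.

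Pcdhgc3, a C-type gene with a role in dendrite branching, had promoter peaks at chr18:37806224-37806891 in replicate 1 and chr18:37806192-37806841 in replicate 2. The summits lay 53 bp and 43 bp upstream of the gene start at 37806364, only 10 bp from each other. Both summits also fell in an exon of BC037039, an antisense gene on the opposite strand. The peak held 19 tags in replicate 1 (95% exact Poisson interval 11.4 to 29.7) and 31 in replicate 2 (21.1 to 44). Fold enrichment was 4.94 and 7.06, a mean of 6 ± 1.5 (SD, n = 2), and −log10 q was 6.97 and 16.1, a mean of 11.6 ± 6.49. The tag intervals of the replicates overlapped. Poisson intervals here and below cover counting error only.

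Pcdhgc4, a C-type gene needed for the survival of cortical interneurons, had the promoter peak with the highest mean −log10 q of the family. It spanned chr18:37814965-37815590 in replicate 1 and chr18:37814416-37815746 in replicate 2, or 626 bp and 1331 bp. The summits lay 18 bp upstream and 34 bp downstream of the gene start at 37815079. Tags numbered 19 (11.4 to 29.7) in replicate 1 and 37 (26.1 to 51) in replicate 2. Fold enrichment averaged 6.66 ± 2.43 (SD, n = 2), and −log10 q averaged 14.5 ± 10.6, from 6.97 and 22. Replicate 2 was the higher in every measure, and the tag intervals overlapped.

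Pcdhb1, the first gene of the Pcdhb array, was the third member with a peak in both replicates. Its peaks lay at chr18:37264705-37265212 and chr18:37264606-37265180, with summits 27 bp and 217 bp upstream of the gene start at 37264938. The peak held 17 tags (9.9 to 27.2) in replicate 1 and 24 tags (15.4 to 35.7) in replicate 2. In replicate 1 the lower bound was under the 10 tags of the weakest peak of that list. Fold enrichment averaged 4.98 ± 0.755 (SD, n = 2), and −log10 q averaged 7.76 ± 3.2, from 5.5 and 10. Ordered by mean −log10 q, Pcdhgc4 came first, then Pcdhgc3 and Pcdhb1, but neighbours in this order differed by less than the larger of their SDs. Among promoter peaks of all protein-coding genes, the peak of Pcdhb1 stood above 34.7% in replicate 1 and 39% in replicate 2. Pcdhgc3 stood above 46.9% and 59.9%, and Pcdhgc4 above 46.9% and 72%. These 3 members were thus not at the top of the range of promoter peaks.

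Pcdha1 and Pcdha2, the first genes of the Pcdha array, had a peak in replicate 2 only. That of Pcdha1, at chr18:36930481-36930704, held 15 tags (8.4 to 24.7) with a −log10 q of 3.57. That of Pcdha2, at chr18:36939410-36939628, held 18 tags (10.7 to 28.4) with a −log10 q of 5.51. Their summits lay inside the variable exon, 414 bp and 305 bp downstream of the gene start, farther downstream than those of the other members with a peak. The 50 bp at the Pcdha1 summit occurred at 4 places of the genome, so reads from other places may have entered this peak. The 50 bp at the Pcdha2 summit were unique. Among promoter peaks of all protein-coding genes in replicate 2, the peaks of Pcdha1 and Pcdha2 stood above 6.39% and 17.1%. Lower bounds of both tag intervals were under the 11 tags of the weakest peak of that list.

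The other C-type genes had no peak within 1 kb of their start in either replicate. These were Pcdhac1 (chr18:37090013-37187657), Pcdhac2 (chr18:37143503-37187657), which acts in the tiling of serotonergic axons, and Pcdhgc5 (chr18:37819513-37841873). Pcdhgc5 starts next to Pcdhgc4 in the same array. The C-type genes were therefore split, with accessible promoters at Pcdhgc3 and Pcdhgc4 and none called at the remaining 3.

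**Figure D2:**
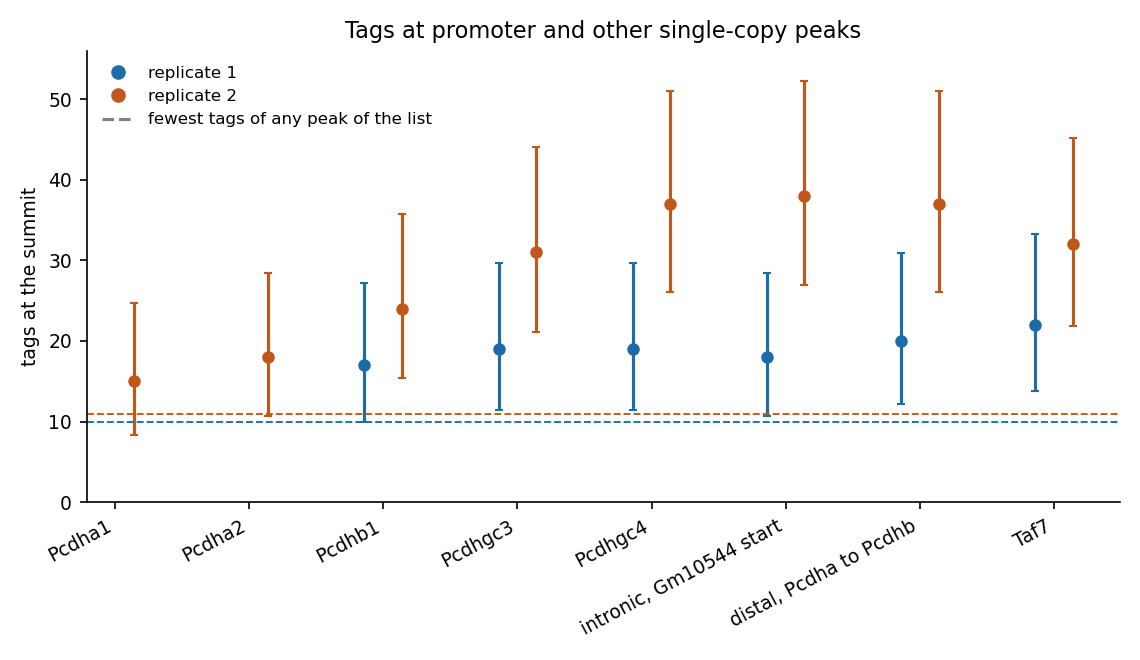
Tags at the summit (vertical axis) of the promoter peaks of 5 clustered protocadherins, the intronic peak at the start of Gm10544, the distal peak between the Pcdha and Pcdhb genes and the Taf7 promoter, in replicate 1 (blue) and replicate 2 (orange), with exact 95% Poisson intervals; dashed lines mark the fewest tags of any peak of each list, 10 and 11. Pcdhgc4 reaches 19 and 37 tags, and Pcdha1 and Pcdha2 have a point for replicate 2 only.

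Outside promoters, the locus was examined from 50 kb before the first gene to 50 kb after the last (chr18:36880184-37891873). This window of 1012 kb held 24.5 ± 6.36 peaks on average (SD, n = 2), with 20 called in replicate 1 and 29 in replicate 2. The density was 1.98 peaks per 100 kb in replicate 1, against 2.2 on chromosome 18 and 2.13 on all assembled chromosomes. In replicate 2 it was 2.87 per 100 kb, against 2.35 and 2.37. The window as a whole was thus close to the surrounding genome in peak density, although its promoters were not.

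Most window peaks had summits in sequence found at several places of the genome, as did most peaks overall. Summits whose 50 bp were found once in the genome are termed single-copy, and those found at further places multi-copy. Single-copy summits made up 7 of the 20 window peaks in replicate 1 (35%) and 11 of the 29 in replicate 2 (37.9%). On all assembled chromosomes the shares were 33.1% and 38.9%, and on chromosome 18 they were 48.2% and 52.9%. The window was thus near the genome-wide share and below that of its own chromosome. Per 100 kb this was 0.692 and 1.09 single-copy peaks, against 1.06 and 1.24 on chromosome 18 and 0.703 and 0.919 on all assembled chromosomes. Of the 13 multi-copy peaks in replicate 1, all lay in sequence wholly soft-masked as repeats over the 201 bp around the summit, as did 17 of the 18 in replicate 2, the exception being that of Pcdha1. A read that matches the 50 bp of a multi-copy summit cannot be placed by its own sequence alone. The reads were paired, and whether the other read of a pair placed it was not tested.

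**Figure D3:**
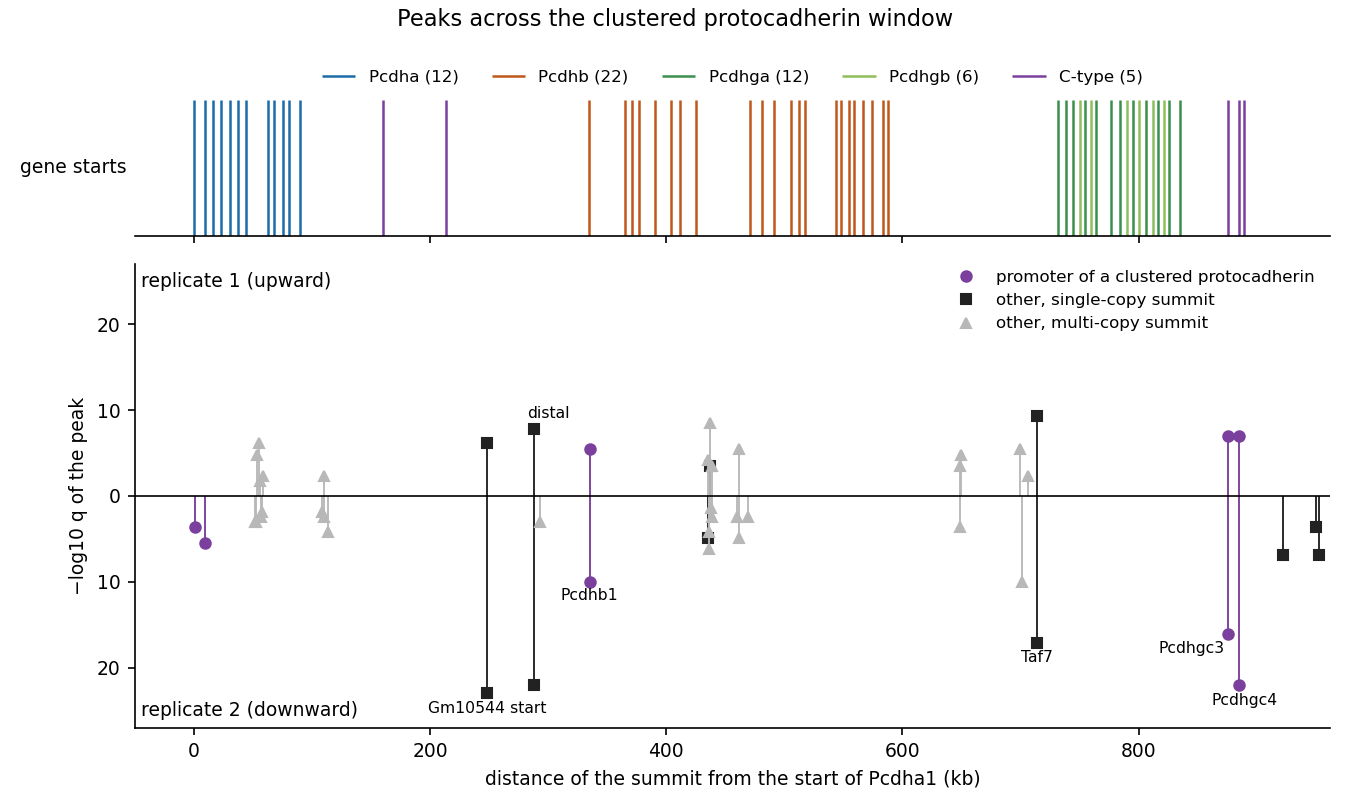
Peaks of the window by distance of the summit from the start of Pcdha1 (horizontal axis, kb) and −log10 q (vertical axis), replicate 1 upward and replicate 2 downward, with the 57 gene starts above in the colour of their group. Circles mark promoter peaks of clustered protocadherins, squares other single-copy summits and triangles other multi-copy summits; the Pcdhga and Pcdhgb starts lie in a stretch without any peak.

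Away from the members' promoters there were on average 20.5 ± 4.95 peaks (SD, n = 2), with 17 in replicate 1 and 24 in replicate 2. Of these, 4 and 7 had single-copy summits. By segment, the Pcdha variable exons held 5 and 7 of them, the Pcdhb array 5 and 8, and the interval between the Pcdhb and Pcdhg genes 5 and 3. The Pcdha constant exons held 1 in each replicate, and the interval between the Pcdha and Pcdhb genes 1 and 2. None of these peaks lay among the Pcdhg variable exons, and neither replicate had a peak in the Pcdhg constant exons or the upstream flank. The downstream flank held none in replicate 1 and 3 in replicate 2.

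A pair of single-copy peaks flanked the end of the Pcdha array in both replicates. As background, a pair of enhancers is known there, in an intron between constant exons and downstream of the last constant exon. Their positions were not in the annotation used, and the peaks were not matched to them. The upstream peak lay at chr18:37178363-37178693 in replicate 1 and chr18:37178082-37178847 in replicate 2, within the intron between exon 3 and exon 4 of Pcdhac2, both of them constant exons. Its summits were 19.1 kb past exon 3 and, in the other direction, 6.51 kb and 6.46 kb short of exon 4. They also lay 82 bp and 38 bp inside the start of Gm10544, a non-coding transcript of the opposite strand. The peak held 18 tags (10.7 to 28.4) in replicate 1 and 38 (26.9 to 52.2) in replicate 2. Fold enrichment averaged 6.64 ± 2.76 (SD, n = 2), with a −log10 q of 6.22 and 23, a mean of 14.6 ± 11.9.

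The downstream peak of the pair lay between the Pcdha and Pcdhb arrays, at chr18:37218018-37218408 in replicate 1 and chr18:37217947-37218461 in replicate 2. Its summits were 30.7 kb and 30.6 kb past the end of the Pcdha genes and 46.6 kb and 46.7 kb before Pcdhb1. No gene start lay within 1 kb, and no exon covered the summits. The only gene records across them were the long read-through models Gm42416, Gm37013 and Gm37388. The peak held 20 tags (12.2 to 30.9) in replicate 1 and 37 (26.1 to 51) in replicate 2. Fold enrichment averaged 6.78 ± 2.26 (SD, n = 2), and −log10 q was 7.74 and 22, a mean of 14.9 ± 10.1. This was the highest mean −log10 q of the window, but it exceeded that of the intronic peak and of Pcdhgc4 by less than their SDs. It was the highest in neither replicate, as Taf7 (9.36) and the pair at 437 kb described below (8.54) were above it in replicate 1 and the intronic peak (23) in replicate 2. Among all single-copy peaks of the list, it stood above 75.6% in replicate 1 and 87.7% in replicate 2.

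The third single-copy peak shared away from the members' promoters was that of Taf7, which encodes a subunit of the general transcription factor TFIID and lies between the Pcdhb and Pcdhg arrays. The peak covered the gene start at 37644204, at chr18:37643948-37644408 and chr18:37643817-37644342, with 22 and 32 tags. Its −log10 q was 9.36 and 17.1, a mean of 13.2 ± 5.46 (SD, n = 2), and its fold enrichment averaged 6.48 ± 1.13. Of the 6 other protein-coding genes that reach into the window, Taf7 alone had a promoter peak in both replicates, as did 28.7% of all protein-coding genes. Diaph1, an actin-nucleating formin, had one in replicate 2 only, with a −log10 q of 4.19. Slc25a2, a mitochondrial carrier gene, and the read-through genes Gm42416, Gm37013 and Gm37388 had none. The Taf7 promoter thus stood within the range of the Pcdhgc3 and Pcdhgc4 promoters by mean −log10 q and mean fold.

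Another 7 pairs of overlapping peaks away from the members' promoters had a multi-copy summit in 1 replicate or both. The highest was at chr18:37630454-37631410 in replicate 1 and chr18:37630489-37631000 in replicate 2, between the Pcdhb and Pcdhg arrays. Its −log10 q averaged 7.76 ± 3.2 (SD, n = 2), and the 50 bp at its summits occurred at 826 and 522 places. The others, by distance of the replicate 1 summit from the start of Pcdha1, were at 53, 110, 435, 437, 462 and 649 kb. Their mean −log10 q was 3.89 ± 1.28, 2.37 ± 0.0816, 4.48 ± 0.502, 4.99 ± 5.03, 5.17 ± 0.464 and 3.53 ± 0.059, in that order. All 6 were weaker than the peak of Pcdhb1 by mean −log10 q, and the pair at 437 kb varied most, from 8.54 in replicate 1 to 1.43 in replicate 2.

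Of the window peaks, 13 of 20 (65%) in replicate 1 and 13 of 29 (44.8%) in replicate 2 overlapped a peak of the other list by at least 1 bp. On all assembled chromosomes these shares were 58.8% and 51.4%. Among single-copy window peaks, 6 of 7 in replicate 1 and 7 of 11 in replicate 2 were shared, against 66.9% and 49.6% of all single-copy peaks. The single-copy peak of replicate 1 without a partner lay at chr18:37367078-37367249 in masked repeat sequence of the Pcdhb array, with 14 tags. Replicate 2 had 4 single-copy peaks without a partner, that of Pcdha2 and 3 in the downstream flank. The flank peaks lay in introns of Diaph1, at chr18:37852184-37852444, chr18:37880093-37880360 and chr18:37883608-37883787, with 20, 15 and 20 tags.

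Long stretches of the arrays held no peak. The 18 Pcdhga and Pcdhgb gene starts all lay in a stretch of 162 kb without a peak in either replicate, from the Taf7 peak to the Pcdhgc3 peak. Of the stretches between neighbouring peaks of either list on chromosome 18, 2.45% were at least as long. Such shares count stretches and not the sequence that they cover. They are therefore not the chance that a gene start falls in one. Within the single lists the share was 5.72% in replicate 1 and 4.88% in replicate 2, and among single-copy peaks it was 15% in replicate 1, 12.6% in replicate 2 and 8.54% for either list. How common stretches of this length were on the chromosome thus depended on the peaks used. Over both lists together, the 14 starts from Pcdhb9 to Pcdhb22 lay in a stretch of 180 kb, a length that 1.83% reached (4.42% of those in replicate 1 reached its 186 kb there, and 3.75% in replicate 2 its 180 kb). The 7 starts from Pcdhb2 to Pcdhb8 lay in a stretch of 99.8 kb, a length that 6.62% reached (12.5% in replicate 1 and 11.6% in replicate 2). In the Pcdha array, Pcdha3 to Pcdha7 lay in 42.1 kb and Pcdha8 to Pcdha12 in 49.3 kb, lengths that 22.4% and 19% reached. These Pcdha stretches were bounded on at least 1 side by multi-copy peaks and depended on the peaks used. In replicate 1 alone, the starts from Pcdha1 to Pcdha7 lay in 181 kb without a peak, a length that 4.62% reached. Most of that stretch lay upstream of the array, as it ran from 36802014 to 36982947 and Pcdha1 starts at 36930184. With single-copy peaks of either list, the 12 starts from Pcdha3 to Pcdhac2 lay in 238 kb (4.3% as long), those from Pcdhb2 to Pcdhb8 in 99.8 kb (15.3%) and those from Pcdhb9 to Pcdhb22 in 277 kb (3.23%). This 277 kb stretch ran to 37643816 and the 180 kb stretch above to 37578627, both past the end of the Pcdhb array at 37524479. In the single lists, the single-copy shares were higher again, at 24.3% and 21.5% for Pcdhb2 to Pcdhb8 and 7.19% and 6.21% for Pcdhb9 to Pcdhb22. The single-copy stretch over Pcdha starts was 376 kb (5.42%) in replicate 1 and 238 kb (7.45%) in replicate 2. That of 376 kb also began at 36802014, upstream of the array. Outside the C-type genes and Pcdhb1, the Pcdhb and Pcdhg promoters were therefore grouped in 3 stretches without peaks.

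The sequence of the members' promoters was mostly unique. The 50 bp sequences centred at each 100 bp within 1 kb of the gene start were single-copy at 1148 of 1197 positions (95.9%), against 92.4% over all protein-coding genes. At the 52 members without a peak the share was 95.7%, and the lowest member, Pcdha7, had 81%. The promoters of Pcdhb1, Pcdhgc3 and Pcdhgc4 were single-copy at every position tested. Lack of peaks at the other members therefore went with unique sequence at most positions. Only exact copies were counted, and the part of similar sequence elsewhere in the lack of peaks was not tested.

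The members' promoters were poor in G and C. From 250 bp before to 50 bp after the gene start, the median GC content was 39.7% (range 30.7 to 62), against a median of 55% for all protein-coding genes. Promoters under 45% GC numbered 45 of the 57. The median ratio of observed to expected CpG was 0.521, close to 0.525 for all protein-coding genes. Among the C-type genes, Pcdhgc3 had a GC content of 62%, Pcdhac1 60.7%, Pcdhgc5 54.7%, Pcdhac2 52.3% and Pcdhgc4 47.3%. Pcdhb1 had 48.3%, and Pcdha1 and Pcdha2 had 36.3% and 36%. All 5 C-type genes were thus above 45% GC, unlike most of the family, but GC content did not separate C-type genes with a peak from those without.

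Promoter peaks were less frequent at low GC content across the genome. Of the 4116 protein-coding genes with a promoter under 45% GC, 7.65% had a peak in replicate 1 and 10.3% in replicate 2. Of the 45 members in this range, 0 and 2 (4.44%) had one. At 45% GC or more, the shares were 35% and 48.5% of 17822 genes, and 25% of 12 members in each replicate. These ranges are wide, and members lay toward the low end of the upper one. Of the 8 members at 45 to 50% GC, 2 had a peak in both replicates, against 20.6% and 27.2% of all genes there. At 35 to 40% GC, 2 of 24 members had one in replicate 2 only, against 5.93% and 7.71%, and at 40 to 45% GC 0 of 15, against 10.4% and 14.2%. Within such bins the members were thus near the genome-wide share in some and below it in others. The differences amount to a few genes, and the part of GC content in the low share was not tested.

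**Figure D4:**
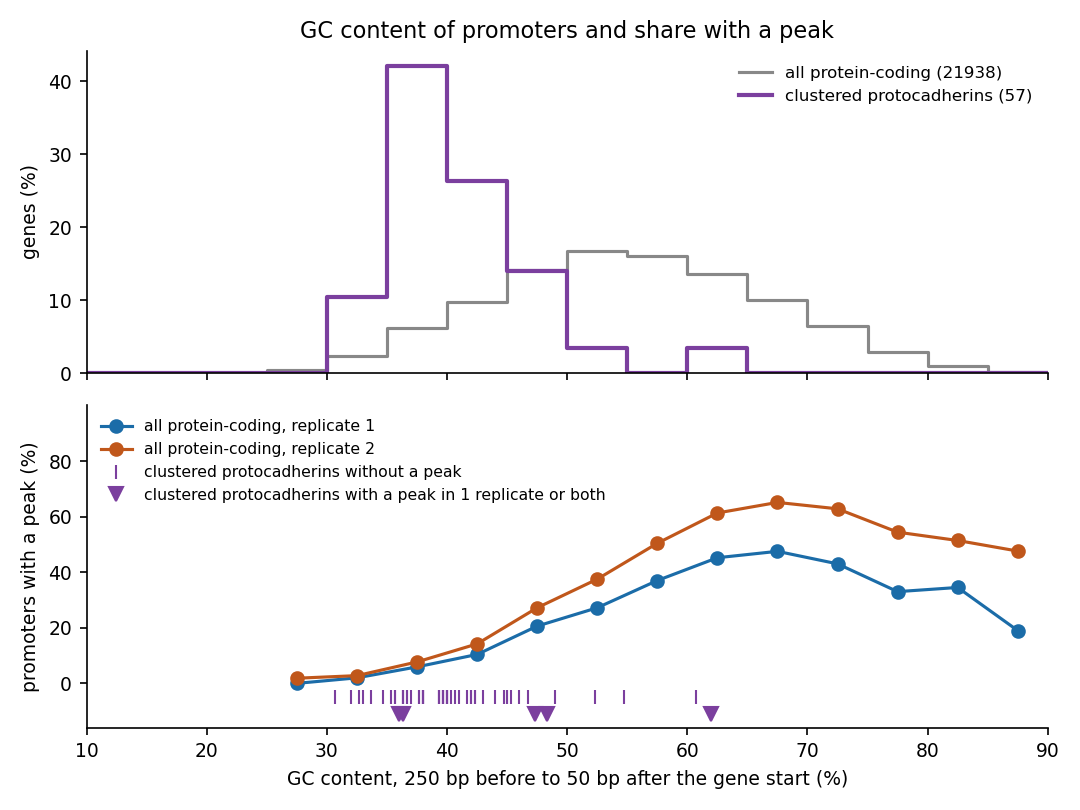
Upper panel, percentage of genes (vertical axis) by GC content from 250 bp before to 50 bp after the gene start (horizontal axis, bins of 5%) for all protein-coding genes (grey) and clustered protocadherins (purple). Lower panel, share of all protein-coding promoters with a peak in each bin (replicate 1 blue, replicate 2 orange; bins of fewer than 20 genes are left out), with the GC content of each member marked beneath; most members lie below 45%, where few promoters have a peak.

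Short motifs were counted on both strands of the same 300 bp. The SP1 box GGGCGG was in 4 of 57 member promoters (7.02%), against 43% of all protein-coding promoters. All 4 were C-type genes, Pcdhac1, Pcdhac2, Pcdhgc3 and Pcdhgc4. Pcdhac1 and Pcdhac2 held the box without a promoter peak, and Pcdhb1 had a peak without it. The TATA box TATAAA was in 10 members (17.5%), against 12.6%, and among members with a peak it was found at Pcdha2. CGCT, the core of an element shared by variable-exon promoters, was in 55 members (96.5%), against 67.1% of all promoters. Pcdhb22 and Pcdhga12 lacked it. A match is a description of the sequence and does not show that a factor was bound.

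The consensus of CTCF, the architectural zinc finger protein known to bind these promoters and exons, was searched by a core of 12 letters. It had no exact match in the 300 bp of any member, and 0.556% of all protein-coding promoters held one. Within 1 kb on either side of the start it was in 6 of 57 members (10.5%), against 1.72% of all promoters of that length. These were 6 of the 12 Pcdha genes, namely Pcdha1, Pcdha4, Pcdha6, Pcdha7, Pcdha8 and Pcdha12. The matches all lay on the strand of the gene, 537 to 581 bp downstream of its start. The position and strand were therefore alike across these Pcdha genes, but no other group held an exact match.

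With 1 mismatch allowed, 13 members (22.8%) had a match within 1 kb, against 20.6% of all promoters. For Pcdha these were 9 of 12 genes, from 456 to 581 bp downstream. The others were Pcdhac1, Pcdhb8, Pcdhgb1 and Pcdhgb7. The relaxed search thus no longer set the family as a whole apart from other promoters within 1 kb, but most of its matches were at Pcdha genes. In the 300 bp, 0 of 57 members had a match with 1 mismatch allowed, against 4.76% of all protein-coding promoters. The replicate 2 peak of Pcdha1 ended 40 bp short of its match, and Pcdha2 had no match. Pcdha4, Pcdha6, Pcdha7, Pcdha8 and Pcdha12 held the exact match but no peak within 1 kb.

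**Figure D5:**
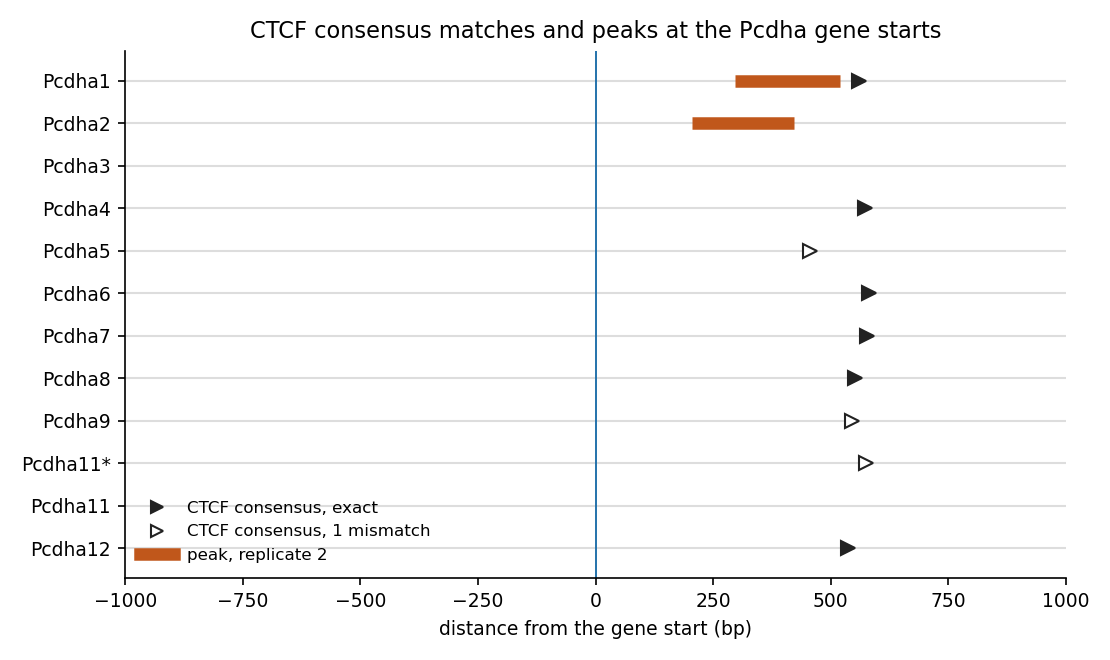
Matches to the CTCF consensus (triangles, filled for exact and open for 1 mismatch, all on the strand of the gene) and peaks of replicate 2 (orange bars) by distance from the gene start (horizontal axis, bp) for the 12 Pcdha genes. The asterisk marks the Pcdha11 record at which RefSeq has Pcdha10. Exact matches lie 537 to 581 bp downstream of the start in 6 genes, and no peak covers a match.

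Among single-copy peaks of the window, a CTCF match with up to 1 mismatch lay in the 201 bp around the summit of 0 of 7 peaks in replicate 1 and 2 of 11 in replicate 2. Over all single-copy peaks, these shares were 4.73% and 5.91%. Both peaks with a match were in introns of Diaph1, downstream of the Pcdhg constant exons. That at chr18:37883608-37883787 held an exact match 66 bp from the summit, and that at chr18:37852184-37852444 held 2 matches with 1 mismatch. The distal peak between the Pcdha and Pcdhb arrays held a match with 1 mismatch 167 bp from its summit in replicate 2. All of these matches lay on the strand opposite to the members, whereas those of the Pcdha genes lay on the members' own strand. The matches with 1 mismatch at Pcdhac1, Pcdhgb1 and Pcdhgb7 were also on the opposite strand. That at Pcdhb8 was on the strand of the gene.

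The non-clustered protocadherins are encoded by single genes elsewhere. Of 12 such genes, 5 had a peak in replicate 1 and 6 in replicate 2, with 5 in both, beside 29.9% and 41.3% of all protein-coding genes. Pcdh17 had the highest mean −log10 q, 32.8 ± 11.1 (SD, n = 2), followed by Pcdh8 with 20.6 ± 12.3, Pcdh20 with 19.8 ± 3.07 and Pcdh10 with 13.4 ± 12.1. Pcdh7, Pcdh11x, Pcdh12, Pcdh15, Pcdh18 and Pcdh19 had no promoter peak. Pcdh1 and Pcdh12 lie on chromosome 18 near the clusters, and only Pcdh1 had a peak at its annotated start, with 17 tags in replicate 2. When any transcript start was counted, 6 of the 12 genes, Pcdh1 among them, had a peak in both replicates. For all protein-coding genes the shares were then 32.9% in replicate 1 and 45% in replicate 2. As other tandem families, the 39 Hox genes had no promoter peak in either replicate, and of 207 vomeronasal type 1 receptor genes 1 and 4 had one. The share of the clustered protocadherins was 5.26% and 8.77%, and differences between these groups were not tested.

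Factors known to fold or silence the clusters were examined as a list of 17 genes. A promoter peak was found for 6 in replicate 1 and 9 in replicate 2, with 6 in both, beside 29.9% and 41.3% of all protein-coding genes. Wapl, which releases cohesin from DNA, had the highest mean −log10 q at 61.7 ± 48.8 (SD, n = 2). Smchd1, a silencer of the clusters, had 27.1 ± 17.5, the cohesin subunit Rad21 25.1 ± 18.7 and the cohesin subunit Smc3 23 ± 10.4. Peaks were absent at the annotated starts of Ctcf, Stag1, Dnmt1, Setdb1, Trim28, Atf7ip, Rest and Wiz. When any transcript start was counted, 8 of the 17 genes had a peak in replicate 1 and 14 in replicate 2, beside 32.9% and 45% of all protein-coding genes, and Ctcf, Setdb1 and Rest had none. For this list the annotated start therefore mattered, whereas for the members any transcript start gave the same 3 and 5 genes.

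Intracellular partners of the clustered protocadherins, the kinases and actin regulators that act downstream of them, made up a list of 7 genes. Of these, 4 had a promoter peak in replicate 1 and 6 in replicate 2, with 4 in both, beside 29.9% and 41.3% of all protein-coding genes. Ptk2, for focal adhesion kinase, had a mean −log10 q of 20.2 ± 12.9 (SD, n = 2). Among genes of the WAVE complex, Cyfip1 had 19.8 ± 18.1, Abi1 12.2 ± 9.55 and Wasf1 8.24 ± 4.87. Ptk2b had no promoter peak. Each of the 4 promoter peaks found in both replicates was higher in replicate 2, as was the median −log10 q of all peaks (4.19, against 3.49 in replicate 1).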

How the data were processed

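ATAC-seq peak lists of 2 replicates of LβT2 cells under 1 condition were used. According to the study's methods and the submitters' processing notes, the authors mapped reads to GRCm38 (mm10) with Bowtie2, removed duplicates and called peaks with MACS2 for each replicate on its own. Versions are not given in the sources used here. The methods name the fly genome-size option ("-g dm") and no input control. Each deposited peak carries a score, equal to −log10 q times 10 with decimals dropped, and a fold enrichment, a ratio to the MACS2 background computed by the authors. They also deposited −log10 of the p-value and of the q-value, with the start, end and summit.

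From these lists, tags at each summit were solved from fold and p-value, and promoter overlap, copy number, GC content and motifs were computed in Python 3.11.15. The packages were numba 0.67.0, scipy 1.17.1, pandas 2.3.3, numpy 2.4.6 and, for figures, matplotlib 3.10.9. Genes came from GENCODE vM21, genome sequence and alternative gene starts from RefSeq. All 57 members were matched to a RefSeq gene start. Measures were tested on simulated data with known answers. Peaks counted as shared when at least 1 bp overlapped.

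Named were members with a promoter peak, all C-type genes, window peaks overlapping between replicates, neighbouring genes, and up to 4 genes of each list by the highest mean −log10 q with those lacking a peak. Pcdha7, the genes with motif matches and the peaks of 1 replicate only were named after their values were seen. Members and lists were chosen with earlier results of these data known. Alternatives concerned promoter width, gene start, q threshold, summit position, window flank, overlap rule, motif window and leaving out either replicate. Single-copy restrictions on promoters and other peaks, the split by GC content and the CTCF mismatch were added after seeing the data. Read coverage, fragment sizes, expression and DNA methylation were not analysed here, 1 further gene first listed with the 17 folding and silencing factors is not reported here, and no DNA sequence of the locus is printed.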

Additional observations from a re-analysis of the deposited data

How the results depend on the processing

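The number of members with a promoter peak and their share kept near the reported mean of 4 genes and 7.02% with other promoter widths, gene starts, summit rules, single-copy summits or a −log10 q of at least 5. At a −log10 q of at least 10, the mean fell to 1.5 genes and 2.63%, with 0 genes in replicate 1 and 3 in replicate 2. The mean share of all protein-coding genes also fell, from 35.6% to 26.9% at 5 and 17.9% at 10. Within promoters under 45% GC the share was 2.22% and at 45% GC or more 25%. Leaving out either replicate gave 3 to 5 genes, 5.26% to 8.77%, 20 to 29 window peaks, 17 to 24 peaks away from the members' promoters and, for the distal peak, a −log10 q of 7.74 to 22. The mean of 24.5 window peaks became 10.5 at a −log10 q of at least 5, 3.5 at 10 and 9 with single-copy summits. The 20.5 peaks away from the members' promoters became 7, 2 and 5.5. The shared percentage, 54.9% on average, became 29.6% for summits within 100 bp. Within 1 kb on either side, exact motif matches rose to 10.5% of members for CTCF (22.8% with 1 mismatch), 43.9% for the SP1 box, 80.7% for the TATA box and 100% for the CGCT core, since the window is longer. Over all promoters these were 1.72% (20.6%), 66.3%, 59.5% and 92.7%. Of 96 alternative values, 76 were labelled the same and 20 moved. The same means a count within 1.5 times the reported one, or another value within 1 SD of the replicates (or, for motifs and single-copy sequence, within its 95% binomial interval). With 2 replicates, a mean value left with either of them is within 1 SD by construction. For the shares of promoters with a peak and the −log10 q of single peaks, leaving out a replicate therefore says nothing about stability. These values are counted among the 76. The −log10 q of the pair at 437 kb ran from 1.43 to 8.54, of Gm10544 from 6.22 to 23 and of Pcdhgc4 from 6.97 to 22. The cause of the moves was not tested beyond what each setting changes by construction. No paired analysis was possible because there is 1 group. The threshold of each list limits all counts, as a member below 10 or 11 tags gave no peak. How far depth and the genome size named for peak calling each set this threshold was not tested.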
